A study of Mus musculus with 8 samples.

Results

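Genes that mark the ventral telencephalon and the interneurons born there were examined in embryonic mouse cortex with and without Mboat7. The 9 genes were Gsx1, Gsx2, Nkx2-1, Dlx1, Dlx2, Dlx5, Dlx6, Lhx6 and Gad2, a set listed by name. All 9 were present in the count tables of both stages, among 22844 genes that could be matched between a table of 23420 genes at E11.5 and a table of 78298 genes at E12.5. Cortices were taken at E11.5 and E12.5 from Mboat7+/- embryos, which served as controls, and from Mboat7-/- embryos of a global knockout maintained in C57BL/6N, so that every embryo carried at least 1 mutant allele and the gene was lost in all tissues rather than in neural cells alone. Each stage held 2 embryos of either genotype, which gave 8 cortices, and their poly(A) RNA was sequenced on Illumina NovaSeq instruments by Rhelixa for E11.5 and by KOTAI Biotechnologies for E12.5. Mboat7 encodes LPLAT11, the enzyme that places arachidonic acid into phosphatidylinositol.

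In the embryonic forebrain, GABAergic interneurons arise from the ganglionic eminences, which lie ventral to the cortex, and reach the cortex by tangential migration. Gsx1 and Gsx2 are homeobox genes of ventral progenitors, Nkx2-1 patterns the medial ganglionic eminence and is also a gene of the hypothalamus, and the Dlx genes act in overlapping order as progenitors leave the ventricular zone. Lhx6 acts downstream of Nkx2-1 in interneurons of medial origin, and Gad2 encodes an enzyme that makes GABA. At the stages sampled here interneurons are only beginning to enter the cortex, so these transcripts in a dissected cortex report migrating cells together with any ventral tissue taken along with it.

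The total count per cortex lay between 20799311 and 28189771, at which a count of 3 corresponds to 0.106 to 0.144 CPM, the read count scaled to a common library size. Levels are given below as CPM on TMM-normalized library sizes, in which 1 factor per cortex corrects for differences in RNA composition. Mboat7 itself was at 32.3 and 33.1 CPM in the E11.5 Mboat7+/- cortices and at 39.0 and 34.8 CPM in those labelled Mboat7-/- (log2 fold change 0.17, SE 0.11, edgeR adjusted p = 0.527). At E12.5 it was at 35.5 and 36.2 CPM against 31.7 and 32.2 CPM, a log2 fold change of -0.17 (SE 0.10, edgeR adjusted p = 0.958). The counts of Mboat7 therefore did not separate the genotypes in 1 direction at both stages, and the knockout rests on the labels here. The part of the gene that the allele removes was not given in the sources used here.

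The sequence before the start of transcription is shown for 3 of the genes because they differ in how they varied between cortices. At E11.5 Dlx2 had the smallest p-value and Nkx2-1 was the gene with the opposite sign. Lhx6 was there lowest in the same Mboat7-/- cortex as the Dlx genes, but highest in the other Mboat7-/- cortex. Each is the 250 bases before a RefSeq start in GRCm38.p6, read 5′ to 3′ along the gene's strand, which is the minus strand for all 3. They are chr2:71546755-71547004 for Dlx2, chr12:56536909-56537158 for Nkx2-1 and chr2:36105409-36105658 for the most upstream of 3 Lhx6 starts. Capitals mark CAGCTG, an E-box, a core that basic helix-loop-helix proteins can bind.
Dlx2: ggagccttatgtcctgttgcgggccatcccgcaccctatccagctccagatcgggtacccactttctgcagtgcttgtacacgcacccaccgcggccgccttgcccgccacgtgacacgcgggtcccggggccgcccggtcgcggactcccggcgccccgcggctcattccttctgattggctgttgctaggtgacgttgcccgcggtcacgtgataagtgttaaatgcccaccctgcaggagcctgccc
Nkx2-1: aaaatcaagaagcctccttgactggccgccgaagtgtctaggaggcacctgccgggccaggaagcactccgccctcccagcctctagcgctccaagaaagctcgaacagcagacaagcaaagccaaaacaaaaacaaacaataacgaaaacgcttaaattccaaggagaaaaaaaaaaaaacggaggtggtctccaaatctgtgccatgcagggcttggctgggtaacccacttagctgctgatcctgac
Lhx6: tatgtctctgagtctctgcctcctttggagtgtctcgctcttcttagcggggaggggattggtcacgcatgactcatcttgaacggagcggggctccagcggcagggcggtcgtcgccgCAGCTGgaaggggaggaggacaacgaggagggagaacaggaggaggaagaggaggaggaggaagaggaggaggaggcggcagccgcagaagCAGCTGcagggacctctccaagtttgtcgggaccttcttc
Windows of this kind were found for 7 of the 9 genes, 9 windows in all. The letters TAATTA, a core bound by many homeodomain proteins including those of the Dlx and Gsx families, were in 0 of the 9 windows and in 4.84% of all 32851 windows of that length. CAGCTG was in 1 of the 9 windows, the Lhx6 window shown, and in 13.0% of all windows. Both motifs are their own reverse complement, so that a search reads both strands, and they do not overlap in the windows shown. The GC content of the 9 windows ran from 46.0% to 68.0%, with a median of 61.6% against 52.4% for all windows.

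The first comparison was between genotypes at E11.5. Of the 9 genes, 8 had lower mean levels in the Mboat7-/- cortices, and Nkx2-1 had a higher one, but none passed an FDR of 0.05 in edgeR's quasi-likelihood test. The median log2 fold change of the 9 genes was -0.32, against -0.0057 over the 14935 genes tested. Among all genes tested 0% passed the FDR, and 13.8% had an unadjusted p under 0.05, as did 2 of the 9, Dlx1 and Dlx2. The latter count was 5 with the replicate block and 5 without a filter on low counts. The share of all genes past the FDR was also higher in these fits, at 2.34% and 1.75%. Their shares of all genes with an unadjusted p under 0.05 are not given here. Replicates here are separate embryos, 2 per genotype, and the p-values draw on a spread shared across genes as well as on that of each gene.

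The 4 Dlx genes had log2 fold changes between -0.46 and -0.32. Dlx2 was at 132 and 127 CPM in the Mboat7+/- cortices and at 83.4 and 109 CPM in the Mboat7-/- cortices, so the genotypes did not overlap, and the knockout cortices lay further apart than the controls. Its log2 fold change was -0.43 (SE 0.11, 95% interval -0.69 to -0.17), with an unadjusted p of 0.00517 and an adjusted p of 0.209 from edgeR. When the batch number of the labels, equal to the replicate number, entered the fit as a replicate block, Dlx2 passed the threshold with a log2 fold change of -0.44 and an adjusted p of 0.0331 from edgeR, as did 2.34% of all genes. Dlx2 also passed in DESeq2 (adjusted p = 0.0345, with 1.12% of all genes) and in edgeR without a filter on low counts (adjusted p = 0.0222, with 1.75% of all genes). The call was lost when a trend with gene length and GC content was removed in the fit with the block (log2 fold change -0.37, edgeR adjusted p = 0.2). In each fit of all 4 cortices where Dlx2 passed, it was the only 1 of the 9 genes to pass. DESeq2 gave no adjusted p for 5 of the 9 (Gsx1, Gsx2, Dlx5, Dlx6 and Lhx6).

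Dlx1, its neighbour on chromosome 2, was at 78.2 and 80.2 CPM in the controls and at 52.9 and 74.1 CPM in the knockouts, again without overlap. The log2 fold change of Dlx1 was -0.32 (SE 0.14, edgeR adjusted p = 0.361). The ratio of Dlx1 to Dlx2 in CPM stayed between 0.594 and 0.683 over the 4 cortices, although both genes differed between them. Dlx5, which is expressed later in the same lineage, was at 34.4 and 38.8 CPM against 20.4 and 32.9 CPM, and also did not overlap (log2 fold change -0.46, SE 0.20, edgeR adjusted p = 0.37). Dlx6, its neighbour on chromosome 6, had low levels of 8.36 and 6.27 CPM in the controls and of 3.47 and 7.81 CPM in the knockouts, where the genotypes overlapped (log2 fold change -0.38, SE 0.37). In all, 3 of the 9 genes lay below both controls in both knockouts and 0 lay above, while 23.3% of all genes tested lay below in this way and 23.1% lay above.

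**Figure D1:**
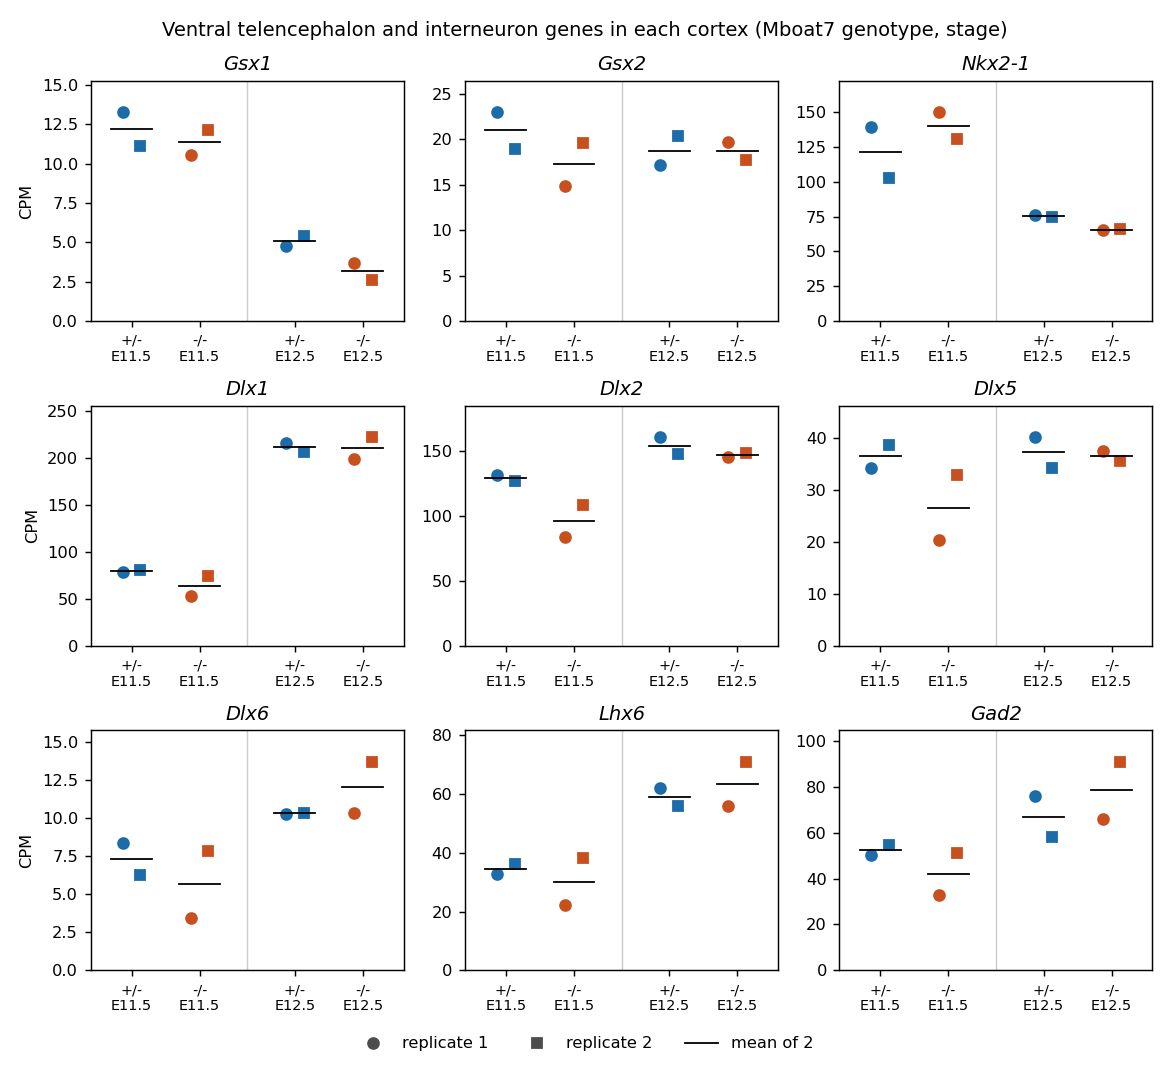
Level of each of the 9 genes in each cortex, with CPM on the vertical axis (starting at 0) and genotype and stage on the horizontal axis. Points are single embryos (circles replicate 1, squares replicate 2) and lines are means of 2. At E11.5 replicate 1 of the Mboat7-/- cortices is the lowest point in 8 panels and the highest in that of Nkx2-1.

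The genes of ventral progenitors overlapped between genotypes at E11.5. Gsx2, which specifies the lateral ganglionic eminence, was at 23.0 and 19.0 CPM in the controls and at 14.9 and 19.6 CPM in the knockouts (log2 fold change -0.28, SE 0.18, edgeR adjusted p = 0.526). Gsx1 was at 13.3 and 11.1 CPM against 10.6 and 12.1 CPM, a log2 fold change of -0.10 (95% interval -0.52 to 0.31). Nkx2-1 was at 140 and 103 CPM in the controls and at 150 and 131 CPM in the knockouts, so that the control cortices differed more than the genotypes did. Its log2 fold change was 0.22 (SE 0.13, 95% interval -0.09 to 0.52, edgeR adjusted p = 0.523). The ratio of Nkx2-1 to Dlx2 in CPM was 1.06 and 0.808 in the controls and 1.80 and 1.21 in the knockouts.

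The 2 genes of differentiating interneurons overlapped as well. Lhx6 was at 32.7 and 36.2 CPM in the controls and at 22.1 and 38.4 CPM in the knockouts, the latter being both the lowest and the highest of the 4 values (log2 fold change -0.19, SE 0.22, edgeR adjusted p = 0.74). Gad2 was at 50.1 and 54.5 CPM against 32.7 and 51.0 CPM (log2 fold change -0.32, SE 0.18, edgeR adjusted p = 0.473).

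A single cortex set much of this pattern. Mboat7-/- replicate 1 was the lowest of the 4 cortices for 8 of the 9 genes and the highest for Nkx2-1, whereas over all genes tested it was the lowest in 28.8% and the highest in 29.6%. The other Mboat7-/- cortex lay within the range of the controls for Gsx1, Gsx2, Nkx2-1, Dlx6 and Gad2, above it for Lhx6 and below it for Dlx1, Dlx2 and Dlx5, at 109 CPM for Dlx2 against 127 CPM in the lower control. Without replicate 1, the log2 fold change of Dlx2 was -0.25 (edgeR adjusted p = 0.162), those of Dlx6 and Lhx6 turned to 0.10 and 0.15, and 0 of the 9 genes passed the FDR. Without Mboat7-/- replicate 2, which leaves 1 knockout assumed to vary like the controls, 6 of the 9 genes passed (Dlx1, Dlx2, Dlx5, Dlx6, Lhx6 and Gad2), with log2 fold changes from -1.07 to -0.58, and 7.7% of all genes passed.

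**Figure D2:**
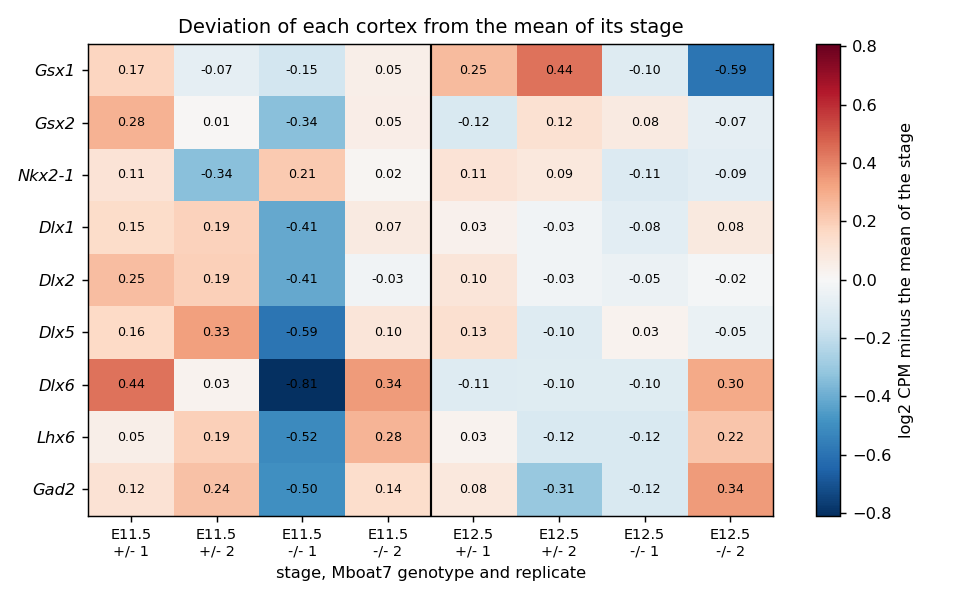
Deviation of each gene in each cortex from the mean of the 4 cortices of its stage, in log2 CPM (colour and printed value), with genes in rows and cortices in columns. At E11.5 Mboat7-/- replicate 1 is below the mean for 8 genes, down to -0.81 for Dlx6, and above it for Nkx2-1 at 0.21.

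At E12.5 the log2 fold changes of the 9 genes ran from -0.69 for Gsx1 to 0.23 for Gad2. None of the 9 passed an FDR of 0.05 in edgeR or in DESeq2, against 0.0184% in edgeR of the 16326 genes tested, and their median log2 fold change was -0.0047, against 0.0050 over all genes. An unadjusted p under 0.05 was found for 1 of the 9, Gsx1, and for 4.11% of all genes. The Mboat7-/- cortices lay below both controls for 2 of the 9 genes, Gsx1 and Nkx2-1 (15.2% of all genes), and above both for 1, Dlx6 (16.9% of all genes).

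Gsx1 had the largest difference of the 9 genes in this comparison. It was at 4.76 and 5.42 CPM in the controls and at 3.69 and 2.61 CPM in the knockouts, a log2 fold change of -0.69 (SE 0.26, 95% interval -1.25 to -0.13), with an unadjusted p of 0.0208 and an adjusted p of 0.958 from edgeR. The ratio of Gsx2 to Gsx1 in CPM was 3.60 and 3.75 in the controls and 5.33 and 6.80 in the knockouts. Gsx2 was at 17.1 and 20.3 CPM against 19.7 and 17.7 CPM (log2 fold change -0.0024).

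Nkx2-1 showed a small and even difference at E12.5. The controls were at 76.0 and 74.7 CPM and the knockouts at 65.2 and 66.3 CPM, so that replicates of each genotype lay close together and the genotypes did not overlap. The log2 fold change of Nkx2-1 was -0.20 (SE 0.09, 95% interval -0.40 to 0.0033), with an unadjusted p of 0.0532 and an adjusted p of 0.958 from edgeR. The ratio of Nkx2-1 to Dlx2 in CPM was 0.474 and 0.508 in the controls and 0.449 and 0.447 in the knockouts.

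For the Dlx genes the intervals at E12.5 all included 0. Dlx1 was at 215 and 207 CPM in the controls and at 198 and 222 CPM in the knockouts (log2 fold change -0.0047, 95% interval -0.22 to 0.21). Dlx2 was at 161 and 147 CPM against 145 and 148 CPM (log2 fold change -0.07, 95% interval -0.27 to 0.14).

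Dlx5 overlapped at 40.3 and 34.3 CPM against 37.5 and 35.6 CPM. For Dlx6 the controls were both at 10.3 CPM and the knockouts at 10.3 and 13.7 CPM, so the lack of overlap rested on a gap under 0.01 CPM (log2 fold change 0.22, SE 0.18). Lhx6 was at 62.0 and 56.0 CPM against 55.9 and 71.1 CPM, and Gad2 at 76.0 and 57.9 CPM against 65.9 and 90.8 CPM, with log2 fold changes of 0.11 and 0.23. The higher means of the knockouts for Dlx6, Lhx6 and Gad2 came from replicate 2, which was the highest of the 4 cortices for these genes and for Dlx1. Without it, the log2 fold changes of Lhx6 and Gad2 turned to -0.08 and -0.02.

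**Figure D3:**
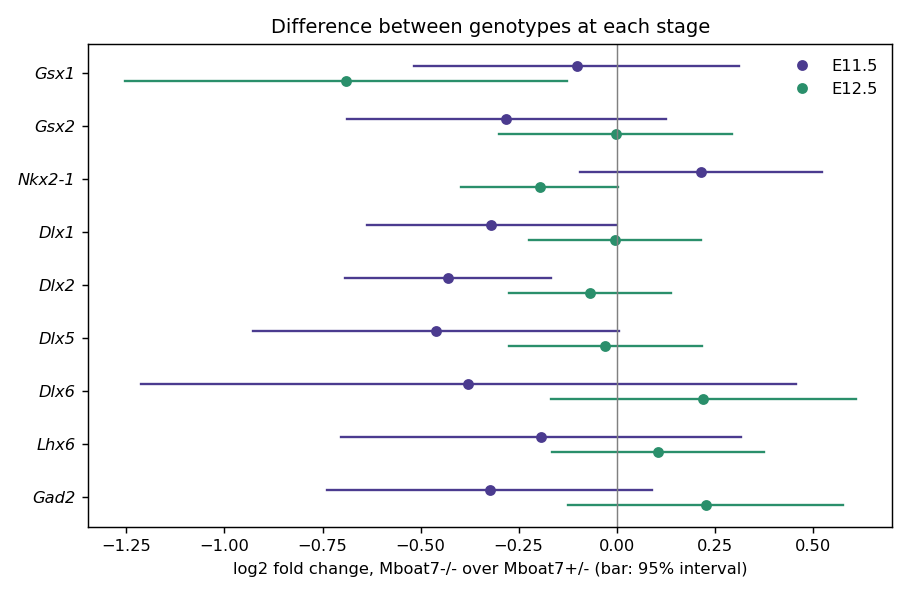
Log2 fold change of Mboat7-/- over Mboat7+/- cortices for each gene at E11.5 and E12.5, with bars for the 95% interval of edgeR's fit. At E11.5 the points of 8 genes lie below 0 and that of Nkx2-1 at 0.22, and at E12.5 the lowest point is Gsx1 at -0.69.

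Whether the genotype difference itself changed from E11.5 to E12.5 was tested by an interaction term over the 8 cortices and 15009 genes. None of the 9 genes passed an FDR of 0.05 in edgeR or in DESeq2, where edgeR called 0% of all genes, and the adjusted p-values from edgeR lay between 0.849 and 0.934. An unadjusted p under 0.05 was found for 2 of the 9 genes and for 5.7% of all genes. The 2 genes were Dlx2, whose log2 fold change was higher by 0.36 at E12.5 (SE 0.16, unadjusted p = 0.0388 from edgeR), and Nkx2-1, whose log2 fold change was lower by 0.41 (the change being -0.41, SE 0.18, unadjusted p = 0.0385 from edgeR). The change was above 0 for 7 of the 9 genes and below 0 for Nkx2-1 and Gsx1 (-0.59, SE 0.31). Stage and sequencing provider cannot be told apart in this design.

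Levels were also compared between the genes, per kilobase of exon as given by GENCODE M21. At E11.5 Nkx2-1 had the highest mean level over the 4 cortices, 46.0 CPM per kilobase, followed by Dlx2 at 39.4, and the ranges of these neighbours over the cortices overlapped (36.1 to 52.8 and 29.2 to 46.1). Dlx5 and Dlx1 followed at 14.0 and 13.2 CPM per kilobase, then Gsx2 with a range of 8.94 to 13.8, then Gad2, Lhx6 and Gsx1 at 8.01, 6.74 and 6.64, and Dlx6 at 2.73. Of these, Dlx5 lay below Dlx2 in every cortex and Dlx6 below Gsx1, and the other neighbours overlapped. At E12.5 the order began with Dlx2 at 52.6 and Dlx1 at 39.0 CPM per kilobase, whose ranges did not overlap, and Nkx2-1 came after them at 24.8. Dlx5 was at 16.3 CPM per kilobase, Lhx6 at 12.7, Gad2 at 12.4 and Gsx2 at 11.2, and of these Lhx6, Gad2 and Gsx2 overlapped each other and Dlx5 overlapped Gad2 (15.2 to 17.8 and 9.86 to 15.5). Dlx6 at 4.70 CPM per kilobase lay above Gsx1 at 2.32. The ratio of Dlx1 to Dlx2 in CPM was 1.34 or more in each cortex of E12.5 and 0.683 or less in each of E11.5. The tables were made with different gene annotations and normalized separately, so levels set across stages were not tested.

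Dlx1 and Dlx6 each have an antisense partner, and the strand setting of the counting was not given in the sources used here, so that Dlx1 could share reads with its partner. Dlx1as shares 335 exon bases with Dlx1, 6.21% of its exons, and Dlx6os1 shares 0 with Dlx6. Dlx1as was at 37.1 and 39.2 CPM in the E11.5 controls and at 25.7 and 36.9 CPM in the knockouts (log2 fold change -0.29, SE 0.16), and its ratio to Dlx1 in CPM was 0.474 to 0.498. Dlx6os1 was at 38.8 and 38.7 CPM against 28.9 and 45.3 CPM (log2 fold change -0.07). At E12.5 their log2 fold changes were 0.14 and 0.06.

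A wider list of 32 other genes of the ventral telencephalon was then described, all of them tested at both stages. At E11.5 0 passed an FDR of 0.05 in edgeR and 1 in DESeq2, Ptch1, while 9 had an unadjusted p under 0.05 in edgeR (13.8% of all genes), with a median log2 fold change of -0.04 against -0.0057 over all genes. With the replicate block Ptch1 passed (log2 fold change 0.65, edgeR adjusted p = 0.00311). The lowest values belonged to Npy and Sst, neuropeptides of interneurons, at log2 fold changes of -1.73 and -0.84, and to the progenitor factor Nkx6-2 at -0.46. Npy was at 1.57 and 1.78 CPM in the controls and at 0.212 and 0.810 CPM in the knockouts, close to the limit of counting. The highest belonged to Ptch1, a receptor and target of hedgehog signalling, and to the postmitotic factors Ebf1 and Maf, at 0.60 and 0.59.

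Hedgehog signalling induces Nkx2-1 in the ventral forebrain, and 4 genes of the pathway were in the wider list. Ptch1 was at 58.8 and 46.0 CPM in the controls and at 93.2 and 71.3 CPM in the knockouts. Gli1, named after its values were seen, was at 62.2 and 48.9 CPM against 77.7 and 61.1 CPM. Like Nkx2-1, both were lowest in Mboat7+/- replicate 2 and highest in Mboat7-/- replicate 1. The genotypes overlapped for Nkx2-1 and Gli1 but not for Ptch1, while 23.1% of all genes tested lay above both controls in both knockouts. Shh, the ligand, was at 32.2 and 25.4 CPM against 48.1 and 22.4 CPM, with overlap. Hhip, a hedgehog-binding protein also named after its values were seen, was at 3.74 and 4.53 CPM against 6.12 and 3.97 CPM and was lowest in the other control.

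At E12.5 0 of the 32 genes passed an FDR of 0.05 in edgeR or DESeq2 and 4 had an unadjusted p under 0.05 in edgeR (4.11% of all genes), with a median log2 fold change of 0.06 against 0.0050 over all genes. The lowest values were those of Shh (-0.72, SE 0.18, unadjusted p = 0.00215 from edgeR), Nkx6-2 (-0.32) and the progenitor factor Olig2 (-0.25). Shh was at 10.6 and 11.9 CPM in the controls and at 7.38 and 6.27 CPM in the knockouts, without overlap and in the direction of Nkx2-1 and Gsx1. Ptch1, the highest of the list at E11.5, was here at 90.3 and 82.2 CPM against 79.5 and 67.6 CPM. Its log2 fold change was -0.23, and its genotypes did not overlap either. The genotypes overlapped for the other hedgehog genes of the list. Gli1 was at 7.30 and 6.67 CPM against 5.82 and 7.29 CPM (log2 fold change -0.09). Hhip was at 3.65 and 2.50 CPM against 3.91 and 3.62 CPM (log2 fold change 0.29). Both knockouts lay below both controls for 15.2% of all genes. The highest were those of Sst (0.70, SE 0.21, unadjusted p = 0.00641 from edgeR), of Gad1 (0.47), the other enzyme of GABA synthesis, and of Npy (0.43). Sst was at 15.2 and 11.95 CPM against 17.0 and 27.2 CPM, and Gad1 at 23.4 and 14.2 CPM against 19.9 and 32.0 CPM. For 18 of the 32 genes Mboat7+/- replicate 2 was the lowest cortex, and for 18 Mboat7-/- replicate 2 was the highest, whereas over all genes tested these shares were 31.0% and 33.2%.

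How much ventral tissue each dissected cortex held was described by summing the 9 genes. The sum was 511 and 475 CPM in the E11.5 controls and 390 and 475 CPM in the knockouts, a log2 ratio of -0.19 between means. At E12.5 it was 662 and 613 CPM against 602 and 668 CPM, a log2 ratio of -0.0054. The lowest and highest cortex differed 1.31-fold at E11.5 and 1.11-fold at E12.5. Without Nkx2-1, whose sign was opposite at E11.5, the sum there was 372 and 373 CPM against 240 and 345 CPM, a log2 ratio of -0.35 and a 1.55-fold range. At E12.5 it was 586 and 538 CPM against 537 and 602 CPM, a log2 ratio of 0.02. In bulk RNA, fewer cells of a type and less RNA per cell cannot be told apart.

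Markers of other tissues differed between the same cortices, and their part in the results was not tested. At E11.5 a list of 11 genes of the dorsal cortex summed to 1290 and 1408 CPM in the controls and to 962 and 1241 CPM in the knockouts, and 11 of 11 had a log2 fold change below 0 (51.0% of all genes), with a median of -0.33. Among them Lhx2, a selector gene of cortical progenitors, was at 443 and 475 CPM against 331 and 420 CPM, and Neurog2, the proneural gene of cortical progenitors, at 148 and 161 CPM against 105 and 151 CPM. A list of 8 genes of neurons in general summed to 2229 and 2496 CPM against 1511 and 2342 CPM, with 8 of 8 below 0 against 51.0% of all genes. Tubb3, a tubulin of neurons, was at 929 and 1022 CPM against 555 and 867 CPM, and Map2, a dendritic protein, at 386 and 436 CPM against 299 and 438 CPM. None of these genes passed an FDR of 0.05 in edgeR, where 6 of the 11 dorsal and 2 of the 8 neuronal genes had an unadjusted p under 0.05 (13.8% of all genes). With the replicate block 4 dorsal genes (Emx1, Eomes, Fezf2 and Lhx2) and 3 neuronal genes (Snap25, Stmn2 and Tubb3) passed (2.34% of all genes), and in DESeq2 Emx1 alone (1.12% of all genes), names given after their values were seen.

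Set against these lists, the ventral genes differed less between the E11.5 cortices. The 9 genes amounted to 0.396 and 0.338 of the dorsal sum in the controls and to 0.406 and 0.383 in the knockouts, with overlap. Without Nkx2-1 the ratios were 0.288 and 0.265 against 0.250 and 0.278. Lhx6 and Gad2 together amounted to between 0.0363 and 0.0381 of the sum of neuronal genes in the 4 cortices, although their own sum ran from 54.8 to 90.7 CPM. At E12.5 that ratio ran from 0.0322 to 0.0439, with a sum of 114 to 162 CPM. Mboat7-/- replicate 1, which was lowest for 8 of the 9 ventral genes, was also the cortex with the lowest dorsal and neuronal sums.

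**Figure D4:**
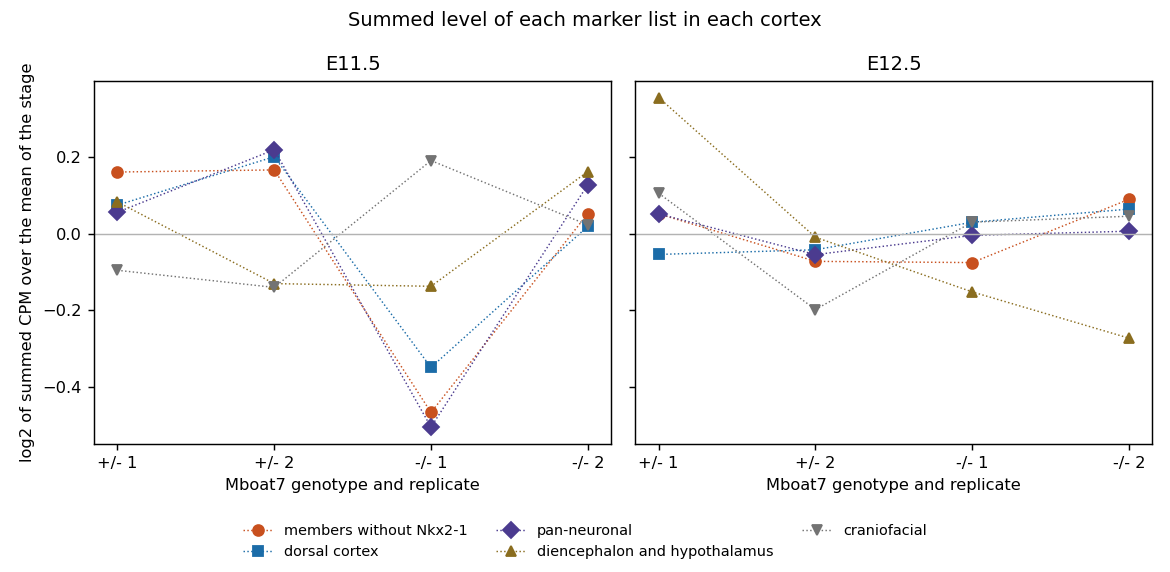
Summed CPM of each marker list in each cortex, as the log2 ratio to the mean of the 4 cortices of the stage, with genotype and replicate on the horizontal axis and dotted lines joining the points of a list. At E11.5 the ventral genes without Nkx2-1 (240 CPM), the dorsal cortex (962 CPM) and the neuronal genes (1511 CPM) are all lowest in Mboat7-/- replicate 1, where the craniofacial genes are highest (317 CPM).

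Transcripts of genes listed for tissue outside the telencephalon were also found at E11.5, and whether such tissue was present was not tested. A list of 8 genes of the diencephalon and hypothalamus summed to 219 and 189 CPM in the controls and to 188 and 232 CPM in the knockouts, led by Tcf7l2, a gene of the thalamus, at 114 and 90.7 CPM against 66.8 and 136 CPM, and by Irx3 at 47.6 and 42.6 CPM against 55.1 and 46.4 CPM. Each of the 8 was detected in every cortex, 0 passed an FDR of 0.05 in edgeR or DESeq2 and 1 had an unadjusted p under 0.05 (13.8% of all genes), and with the replicate block Nkx2-4 passed (2.34% of all genes). The sum was lowest in Mboat7-/- replicate 1, where Nkx2-1 was highest, but it was nearly as low in Mboat7+/- replicate 2. Tcf7l2, the most counted gene of the list, was also lowest in Mboat7-/- replicate 1. A separate sum was made of Shh, Rax and Nkx2-4, put together after their values were seen. It was 43.1 and 36.7 CPM in the controls and 77.0 and 25.8 CPM in the knockouts. Each of these genes was highest in Mboat7-/- replicate 1, as the sum and Nkx2-1 were. The sum was lowest in Mboat7-/- replicate 2, but Nkx2-1 was lowest in Mboat7+/- replicate 2. Of the diencephalic list, Otp and Gbx2 were lowest in Mboat7-/- replicate 1, as Tcf7l2 was, while Sim1 and Irx3 were highest there. Single genes of the list, named after their values were seen, differed in where they were highest: Otp was at 17.7 and 18.6 CPM against 13.7 and 19.5 CPM, Nkx2-2 at 15.5 and 8.95 CPM against 12.9 and 9.43 CPM, and Rax at 9.98 and 10.5 CPM against 23.4 and 0.810 CPM. Nkx2-4, a close relative of Nkx2-1, was at 0.924 and 0.756 CPM against 5.41 and 2.59 CPM.

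Dlx5 and Dlx6 are also expressed in the branchial arches, and a list of 8 craniofacial genes summed to 260 and 252 CPM in the E11.5 controls and to 317 and 282 CPM in the knockouts, highest in the cortex where Dlx5 and Dlx6 were lowest. Prrx1, a gene of mesenchyme, was at 73.5 and 90.6 CPM against 82.4 and 89.8 CPM, and Alx4 at 93.7 and 77.6 CPM against 128 and 102 CPM. Of 6 tested, 0 passed in edgeR and 3 had an unadjusted p under 0.05 (13.8% of all genes), while Alx4 passed in DESeq2 (1.12%) and Alx4 and Barx1 with the replicate block (2.34%). Dlx4 and Hand2, which mark the arches, were at 0 in at least 1 cortex and at no more than 0.323 CPM in any. Other genes of the list, named after their values were seen, were detected in every cortex. Barx1 was at 0.185 and 0.529 CPM in the controls, near the limit of counting, and at 4.17 and 2.27 CPM in the knockouts (log2 fold change 3.12). Dlx3 was at 0.793 CPM or more in each cortex, with overlap between genotypes. Whether arch tissue was present was not tested.

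At E12.5 the dorsal list summed to 1527 and 1540 CPM in the controls and to 1619 and 1657 CPM in the knockouts, with 10 of 11 genes above 0 (8357 of all 16326 genes) and a median log2 fold change of 0.09. Lhx2 was at 511 and 542 CPM against 553 and 523 CPM, and Neurog2 at 184 and 178 CPM against 200 and 214 CPM. The ratio of the 9 ventral genes to the dorsal list was 0.434 and 0.398 in the controls and 0.372 and 0.403 in the knockouts, which overlapped. The neuronal list summed to 3808 and 3537 CPM against 3662 and 3690 CPM, with Tubb3 at 1420 and 1534 CPM against 1387 and 1295 CPM and Map2 at 744 and 607 CPM against 715 and 698 CPM.

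No gene of these lists passed an FDR of 0.05 in edgeR or DESeq2 at E12.5, and 3 dorsal and 0 neuronal genes had an unadjusted p under 0.05 in edgeR (4.11% of all genes).

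Genes from outside the telencephalon were at low levels at this stage. The diencephalon and hypothalamus list summed to 44.3 and 34.4 CPM in the controls and to 31.1 and 28.6 CPM in the knockouts, in the same order as Gsx1 and Nkx2-1 at E12.5 in that both knockouts lay below both controls. Tcf7l2 stood at 16.6 and 16.8 CPM against 18.2 and 16.5 CPM, Irx3 at 1.44 to 2.31 CPM over the 4 cortices, and 1 gene of the list, Nkx2-2, was at 0 in a cortex. The order of the sum came mainly from Otp, a hypothalamic gene named after its values were seen, at 17.7 and 8.43 CPM against 5.04 and 3.62 CPM. Otp did not pass in edgeR (adjusted p = 0.359). It passed in DESeq2, with 10 of all 16326 genes, and with the replicate block, with 21. Of the 5 genes of this list tested, 2 had an unadjusted p under 0.05 in edgeR (4.11% of all genes), Otp and Sim1. Sim1, also named after its values were seen, was at 2.21 and 1.90 CPM against 1.04 and 0.354 CPM. For both genes the knockouts lay below both controls, as for 15.2% of all genes. The craniofacial list summed to 61.2 and 49.6 CPM against 58.1 and 58.7 CPM, with Prrx1 at 25.3 to 34.1 CPM and Alx4 at 7.27 to 9.80 CPM, and 4 of its 8 genes, Dlx3, Dlx4, Hand2 and Barx1, were at 0 in at least 1 cortex. Of the 4 craniofacial genes tested, 0 had an unadjusted p under 0.05 (4.11% of all genes).

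Finally, the 9 genes were compared with each other and with all other genes by their deviations from the stage mean over the 8 cortices, a description in which cortices of 1 stage share provider and table. Pearson's r of each gene with the mean of the other 8 was 0.95 for Dlx1, 0.91 for Dlx2, 0.87 for Dlx5, 0.86 for Dlx6, 0.80 for Lhx6, 0.74 for Gsx2 and 0.68 for Gad2. Gsx1 at 0.07 and Nkx2-1 at -0.45 stood apart from the rest. For each of the other genes the largest deviation was that of E11.5 Mboat7-/- replicate 1, from -0.34 for Gsx2 to -0.81 for Dlx6. That 1 cortex weighs heavily in these values of r, and r without it was not computed. Among 10603 other genes with a mean of at least 5 CPM at each stage, the 10 most like the mean of the 9 were Myef2, Lhfpl4, Agfg2, Phf21b, Gprin1, Pcyt1b, Gbx2, Exoc1, Dpysl5 and Ap3b2, with r from 0.985 down to 0.969. Of these only Gbx2, a homeobox gene counted in the diencephalic list, was in any of the marker lists, and none was in the wider ventral list. Gbx2 was at 9.38 and 8.84 CPM in the E11.5 controls and at 2.05 and 9.64 CPM in the knockouts. Like 8 of the 9 ventral genes, it was lowest in Mboat7-/- replicate 1.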

How the data were processed

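The authors sequenced poly(A) RNA from 8 cortices with directional libraries and deposited raw read counts per gene, without normalization, in a table per stage. The submitters' processing notes name HISAT2, Subread, mm10 and GRCm39, without saying which table used which build. Fold changes, CPM and p-values were computed here. In R 4.3.3, edgeR 4.0.16 was run on each stage separately: TMM factors, filterByExpr (minimum count 10), the quasi-likelihood test, p-values adjusted by Benjamini-Hochberg and an FDR of 0.05. An interaction fit used genes in both tables. Tables were handled in Python 3.11.15 with pandas 2.3.3. Fits were tested on simulated data.

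The 9 genes and the marker lists were chosen with earlier results of these data known, and genes outside the 9 were named by fixed rank: 3 lowest and 3 highest log2 fold changes of the wider list and 2 antisense RNAs, the 2 most counted genes of other lists, and the 10 most similar genes (log2 of CPM plus 0.1, stage-centred). Exceptions are said to be so. Some genes of the lists are not reported here. Replicates of a genotype differed by more than sampling noise (chi-square per degree of freedom 8.70 to 14.9). A floor of 3 counts covers counting error only. Replicate numbers equal the labels' batch numbers and were taken to pair cortices. Deviations of same-numbered cortices correlated at 0.05 (E11.5) and -0.12 (E12.5).

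Alternatives were RLE, upper-quartile and library-total scaling, DESeq2 1.42.0, a minimum of 10 counts per cortex or no filter, the replicate block and leaving out each cortex. A length and GC trend (splines of 5 degrees of freedom) and a crossed pairing were added after the data were seen.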

Additional observations from a re-analysis of the deposited data

How the results depend on the processing

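The number of the 9 genes past the FDR at E11.5, 0 as reported, was 1 (Dlx2) in DESeq2, without a filter and with the replicate block, and ran from 0 to 6 when a cortex was left out. It stayed 0 at E12.5 and in the interaction under every alternative run. With the length and GC trend removed it was 0, with and without the block. Of the 9 genes, the number with an unadjusted p under 0.05 varied among alternatives that kept all cortices. It was 1 to 5 at E11.5, 1 to 3 at E12.5 (3 with the crossed pairing) and 1 to 5 in the interaction. With the crossed pairing 2018 of all 16326 genes had an unadjusted p under 0.05, and these numbers are not given for the other alternatives. In the paired fit with the replicate block, genes called overall numbered 349 at E11.5 (0 without it) and 21 at E12.5 (3 without it), and the block changed the call of no other of the 9 genes. The E12.5 pairing with crossed numbers called 0 of the 9 genes and 148 overall. DESeq2 called 168, 10 and 14 genes overall at E11.5, E12.5 and in the interaction, and edgeR without a filter 317, 0 and 69.

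Of the log2 fold changes of single genes, 225 kept their direction and side of the threshold under alternatives other than leaving out a cortex, 3 newly passed it (Dlx2) and 10 changed sign, while 5 had no adjusted p in DESeq2. At E11.5 Gsx1 was at 0.000801 with the length and GC trend removed in the paired fit. At E12.5 Gsx2 was at 0.0338 with library totals, 5.68e-05 without a filter, 0.000483 with at least 10 counts, 0.000643 with the replicate block, and 0.0459 with the trend removed (0.0462 with the block as well). There Dlx1 was at 0.0332 and Dlx5 at 0.0050 with library totals, and Dlx5 at 0.0016 with the trend removed and the block. Leaving out a cortex kept 126, passed 6 more and turned 12. Log2 fold changes then ran from -0.22 to 0.0298 for Gsx1, -1.07 to 0.10 for Dlx6 and -0.64 to 0.15 for Lhx6 at E11.5, from -0.12 to 0.13 for Gsx2, -0.0866 to 0.0686 for Dlx1, -0.14 to 0.0898 for Dlx5, -0.0757 to 0.26 for Lhx6 and -0.0217 to 0.43 for Gad2 at E12.5, and from -0.0625 to 0.75 for Lhx6 in the interaction. The cause was not tested. Depth limits Gsx1 and Dlx6 most, which had the lowest counts of the 9 genes.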
